A study of Homo sapiens with 30 samples.

Results

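The regions described here are the 290 stretches of the genome at which both core subunits of Polycomb repressive complex 1, RING1 and RNF2, were called in every peak list of wild-type human neural progenitor cells. They were chosen by merging overlapping or touching peaks of 4 lists on chromosomes 1 to 22, X and Y, and by keeping each merged region that held at least 1 peak of all 4. Of 19856 merged regions, 290 met this rule (1.46%), and they are called core regions. The series holds 30 libraries of 5 genotypes, all in monolayer neural progenitors cultured with N2, B27 and FGF and derived from the human embryonic stem cell line H9. All 4 lists come from wild-type cells, with no edited allele, and were made by CUT&RUN, in which a nuclease tethered to an antibody cuts out the DNA that the target protein occupies. The lists form 2 pairs of 1 RING1 and 1 RNF2 list, called set A and set B. They were paired by a number in the list names that the sample labels do not carry, so the pairing is inferred. The labels leave unsaid which set is replicate 1 and whether the replicates are separate cultures. Libraries of edited genotypes and of other antibodies were not analysed here.

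RING1 and RNF2 are paralogous ubiquitin ligases, and each PRC1 complex holds one of them beside a PCGF protein. PRC1 places a single ubiquitin on histone H2A, and its canonical form, with a CBX subunit, recognises the trimethylated histone H3 lysine 27 that Polycomb repressive complex 2 places. The complexes gather at CpG islands and are best known for keeping genes of other lineages and of other body positions silent in a given cell type.

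The DNA under these regions is shown first, at the starts of 4 genes that the results return to. HOXD1 lies at one end of the HOXD cluster. TBX20, a heart development factor, and OTP, a factor of hypothalamic neurons, have the highest ranked regions of the T-box and paired-type homeobox lists. NR5A2, a nuclear receptor of liver and pancreas, has the window poorest in CpG. Each window runs from 250 bases before to 50 bases after the start in RefSeq on GRCh38.p14, 5′ to 3′ on the gene's strand, with every CG dinucleotide in capitals. The windows are chr2:176188418-176188717 on the plus strand for HOXD1, chr7:35254051-35254350 on the minus strand for TBX20, chr5:77638664-77638963 on the minus strand for OTP and chr1:200027460-200027759 on the plus strand for NR5A2.
HOXD1: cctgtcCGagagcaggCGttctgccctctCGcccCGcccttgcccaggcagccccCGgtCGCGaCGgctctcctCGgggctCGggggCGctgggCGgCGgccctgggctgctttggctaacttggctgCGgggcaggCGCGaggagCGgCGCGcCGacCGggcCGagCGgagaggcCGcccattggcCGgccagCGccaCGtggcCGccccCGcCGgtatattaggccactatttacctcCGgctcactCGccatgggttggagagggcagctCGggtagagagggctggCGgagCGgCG
TBX20: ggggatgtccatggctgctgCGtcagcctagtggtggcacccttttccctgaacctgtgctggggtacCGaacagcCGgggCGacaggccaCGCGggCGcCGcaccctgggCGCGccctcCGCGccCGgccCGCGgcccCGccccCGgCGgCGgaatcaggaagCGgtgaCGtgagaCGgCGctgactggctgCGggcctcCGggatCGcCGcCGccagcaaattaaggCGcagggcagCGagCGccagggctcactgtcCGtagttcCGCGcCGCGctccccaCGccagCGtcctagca
OTP: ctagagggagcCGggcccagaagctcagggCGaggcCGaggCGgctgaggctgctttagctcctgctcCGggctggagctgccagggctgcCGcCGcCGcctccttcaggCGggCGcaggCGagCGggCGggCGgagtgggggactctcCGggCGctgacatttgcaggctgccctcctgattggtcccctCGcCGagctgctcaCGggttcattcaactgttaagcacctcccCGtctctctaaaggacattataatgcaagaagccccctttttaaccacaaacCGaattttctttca
NR5A2: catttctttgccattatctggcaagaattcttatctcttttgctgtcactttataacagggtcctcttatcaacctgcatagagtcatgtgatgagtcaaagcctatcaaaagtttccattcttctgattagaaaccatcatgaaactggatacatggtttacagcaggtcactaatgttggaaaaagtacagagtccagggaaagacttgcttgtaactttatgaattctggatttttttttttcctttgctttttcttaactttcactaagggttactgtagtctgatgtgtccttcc
The HOXD1 window holds 36 CpG at a G+C content of 74.3%, and the TBX20 window holds 38 at 73.3%. The OTP window holds 21 at 63.0%, and the NR5A2 window holds 0 at 36.7%. The capitals thus fill the HOXD1 and TBX20 windows, are fewer in the OTP window and are missing from the NR5A2 window. All 4 starts nevertheless lie in core regions. Among 210 such windows of core genes, the CpG count had a median of 23 and quartiles of 18 and 31. HOXD1 and TBX20 thus lie above the upper quartile, and OTP lies near the median.

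Core regions were wide, and most wide regions were core. Their width ran from 971 to 149946 bp, with a median of 16907 bp and quartiles of 10650.5 and 24168 bp. The closest set for comparison was the 3543 regions (17.8% of merged regions) with a peak of every list but RING1 of set B, called near-core regions. Near-core regions had a median of 2094 bp and a maximum of 32122 bp. The 290 core regions covered 5.90 Mb of the 31.9 Mb in all merged regions. Because width enters through the merging, and a wider region meets more lists, these widths describe the regions and carry no test. Among core and near-core regions together, the core share was 0.362% under 2 kb (6 of 1659 regions), 11.9% between 5 and 10 kb (47 of 396), 67.3% between 10 and 20 kb (111 of 165) and 83.0% between 20 and 30 kb (73 of 88). All 22 regions of 40 kb or more were core. The RING1 list of set B, the shortest with 659 peaks, therefore decides which regions are core, and 617 of its peaks (93.6%) lie in them. The core regions hold 463 of 12891 RING1 peaks of set A, 296 of 16263 RNF2 peaks of set A and 438 of 5901 RNF2 peaks of set B. By bases, that is 97.4% of the RING1 peak length in set B, 27.7% of that in set A, and 37.9% and 20.8% of the RNF2 peak length in sets B and A.

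**Figure D1:**
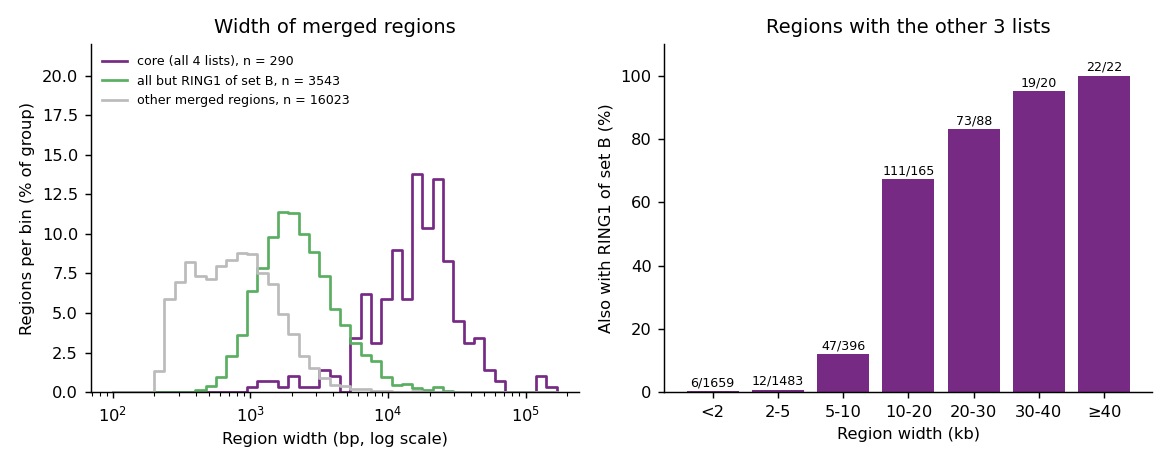
Left, width of core regions (purple), near-core regions (green) and the other merged regions (grey) on a log axis, as percent of each group per bin. Right, share of core regions among core and near-core regions by width in kb, with counts above the bars; the share reaches 100% (22 of 22) at 40 kb and more.

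The 4 widest core regions were the HOX clusters, whose genes set position along the body axis. The HOXC region spanned 149946 bp with 9 HOX genes, the HOXA region 137058 bp, the HOXD region 132152 bp with 9 HOX genes and EVX2, and the HOXB region 129605 bp with 9 HOX genes. HOXB13, which lies apart from the other HOXB genes, had a core region of its own of 44664 bp, shared with PRAC1 and PRAC2. The HOXA region counts 12 coding genes, of which 1 is the readthrough gene HOXA10-HOXA9. RING1 of set A covered 75.7% to 95.02% of the 4 cluster regions and RNF2 of set B 71.2% to 86.0%, whereas RING1 of set B covered 22.3% of HOXD in 17 peaks, 16.1% of HOXA in 17 peaks, 4.30% of HOXB in 4 peaks and 2.89% of HOXC in 9 peaks. The RING1 list of set B thus held islands within clusters that the other 3 lists, RING1 of set A included, covered for the larger part. The other 6 of the 10 widest regions held PAX3 with RNF228 (66554 bp), the annexin receptor gene ANXA2R (62889 bp), the orphan nuclear receptor genes NR2F2 (55702 bp) and NR2F1 (53870 bp), the heart and limb factor gene HAND2 (51726 bp) and the neural crest factor gene TFAP2A (50120 bp).

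The authors' peak fold, a ratio of signal over background given by the peak caller, was high within 3 of the 4 lists at core regions. The fold is taken as the highest peak of each list in each region and is read only within its own list. In CUT&RUN on bulk cells, more cells carrying a protein and more protein per cell cannot be told apart. RING1 of set A had a median of 8.14 in core regions (3.74 to 14.2) and 4.46 in near-core regions, where the list's median is 3.99. RNF2 of set A had a median of 11.0 in core regions (4.47 to 20.3) and 4.96 in near-core regions, with a list median of 4.04. RNF2 of set B had a median of 6.03 in core regions (3.12 to 12.8) and 3.80 in near-core regions, with a list median of 3.69. The ranges of core and near-core regions overlapped in each of these lists. RING1 of set B, whose peaks nearly all lie in core regions, had a median of 4.74 (3.53 to 6.62) against 4.49 over its list. Ranked within its own list, the median core region stood at the 98.3 percentile for RING1 of set A, 99.0 for RNF2 of set A, 96.6 for RNF2 of set B and 67.7 for RING1 of set B. Of the 100 peaks with the highest fold in each list, core regions held 88 of RING1 and 99 of RNF2 in set A, and 100 of RING1 and 91 of RNF2 in set B. Near-core regions held 11 of RING1 and 1 of RNF2 in set A, and 9 of RNF2 in set B. The rule used the presence of these peaks, so no test is attached.

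At matched width the core regions still had the higher medians. Between 20 and 30 kb, 73 core regions had a median of 9.79 for RING1 of set A, against 5.53 in 15 near-core regions. RNF2 stood at 13.8 in core against 6.33 in near-core regions in set A, and at 6.69 against 5.90 in set B. Between 10 and 20 kb, 111 core regions had medians of 7.99 for RING1 of set A, 10.7 for RNF2 of set A and 5.86 for RNF2 of set B, against 5.43, 6.41 and 4.64 in 54 near-core regions. Fold is read only within its own list, so the gaps are not compared between sets, and they were not tested.

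**Figure D2:**
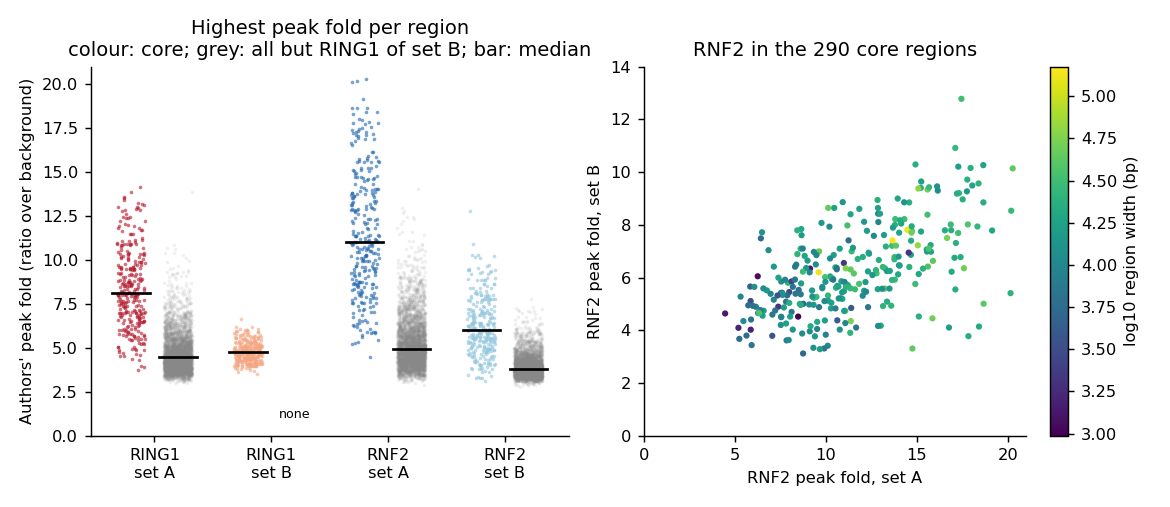
Left, the authors' highest peak fold per region for each list, with 1 point per region, core regions in colour, near-core regions in grey and medians as bars; RING1 of set B has no near-core region by definition. Right, RNF2 fold of set B against set A for the 290 core regions, coloured by log10 width; core medians are 11.0 in set A and 6.03 in set B.

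Across the 290 core regions, folds ranked most alike between the 2 antibodies of set A. Spearman's rho was 0.90 between RING1 and RNF2 of set A and 0.58 between those of set B. Between the sets it was 0.62 for RING1 and 0.57 for RNF2. Width correlated with fold at 0.54 and 0.52 for RING1 in sets A and B and at 0.59 and 0.39 for RNF2. These are descriptions over regions (n = 290) that share 4 libraries and are picked on the same peaks. The significance behind the peaks was uneven, since the deposited −log10 q had core medians of 10.6 and 2.62 for RING1 and 18.4 and 7.53 for RNF2 in sets A and B. RING1 of set B was under 2 in 82 core regions, RNF2 of set B in 10, and the set A lists in 0.

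Core regions were ranked by the lowest of their 4 within-list percentiles, which puts PRDM6, OTP, IRX5, NKX2-3, TBX20, RUNX1, TCF21, PAX3 and SIM1 among the first 10. PRDM6, a regulator of vascular smooth muscle, had folds of 10.8 and 6.18 for RING1 and 14.6 and 8.85 for RNF2 in sets A and B (chr5:123081795-123104918). OTP had 14.2 and 6.07 for RING1 and 20.2 and 8.53 for RNF2 (chr5:77622306-77650794). Both regions thus stood in the top 1% of every list, with percentiles of at least 99.56 and 99.47. SIM1, a hypothalamic bHLH factor, had 13.6 and 5.91 for RING1 and 17.5 and 12.8 for RNF2, the highest RNF2 fold of set B in any core region. PAX3, a neural crest and muscle factor, had 11.1 and 6.62 for RING1 and 15.1 and 7.22 for RNF2, the highest RING1 fold of set B. The leading place thus went to a different region for each antibody of set B.

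At the other end were regions that ranked low within a list of set B. HERC5, an interferon-induced ligase of a ubiquitin-like protein, had RING1 folds of 5.57 and 3.53 in sets A and B and RNF2 folds of 7.06 and 3.79, and its 3.53 was the lowest RING1 fold of set B in any core region. GJA3, a connexin of the lens, had 5.69 and 3.61 for RING1 and 8.34 and 5.39 for RNF2. BNC1, a zinc finger factor of epithelia, had 5.53 and 3.75 for RING1 and 7.55 and 4.51 for RNF2. The remaining 2 of the 5 lowest regions, on chromosomes 1 and 5, held no coding gene, and the one on chromosome 1 was low through RNF2 of set B at 3.12, with RING1 of set B at 4.57. Just outside the rule, the near-core region of NEUROG1, a factor of neuronal commitment, had folds of 7.75 for RING1 of set A and 8.70 and 6.56 for RNF2, and that of FOXB1 had 9.05, 12.5 and 6.41. These near-core values lie above those of HERC5 in all 3 lists, so the boundary of the core set is not a boundary of strength in the other lists.

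Within a core region, the lists covered different shares. RNF2 of set A covered a median of 100% of the region, RING1 of set A 80.5%, RNF2 of set B 71.8% and RING1 of set B 19.4%. In 199 regions a single RNF2 peak of set A was the whole region, and in 285 regions that list had 1 peak. RING1 of set A had 1 peak in 181 regions, RNF2 of set B in 198 and RING1 of set B in 143. All bases of RING1 of set B lay inside RNF2 of set A in 288 regions, inside RING1 of set A in 284 and inside RNF2 of set B in 247. The bases covered by all 4 lists came to a median of 2554.5 bp, or 16.9% of a region, and to 29045 bp at most. In 6 regions no base was common to all 4 lists, among them those of SETD9, HEY2 and NKX2-8, so these regions are core through merging alone.

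RING1 of set B often lay beside a gene start and not on it. Of 210 core gene starts with a tabulated position, 209 lay in a peak of RNF2 of set A (99.5%), 207 in RING1 of set A (98.6%), 191 in RNF2 of set B (91.0%) and 60 in RING1 of set B (28.6%). A RING1 peak of set B lay within 2 kb of 165 of these starts (78.6%), and the median distance over all 210 starts was 538 bp. Among 20 tabulated HOX starts, 3 lay in such a peak and the median distance was 1597 bp. Among 61 other homeobox starts 23 did (473 bp), among 52 other transcription factor starts 14 did (876 bp), and among 77 starts in no transcription factor list 20 did (306 bp). The start of OTP and that of SIM1 lay in a RING1 peak of set B, that of NKX2-1 841 bp from one, that of PAX6 3059 bp and that of HOXD1 10425 bp. A gene at a core region therefore need not have all 4 peaks at its own start. Around the 210 starts, RNF2 of set A was called at 69.0% of genes 5 kb upstream and 82.9% of genes 5 kb downstream, and RING1 of set A at 52.4% and 74.8%. Coverage was thus more frequent downstream of the start than upstream of it in both lists. Gene ends were not considered, so a downstream position may lie past the gene. Around 2456 near-core starts, RNF2 of set A was called at 95.1% at the start itself but at 4.44% and 5.66% at the same distances.

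**Figure D3:**
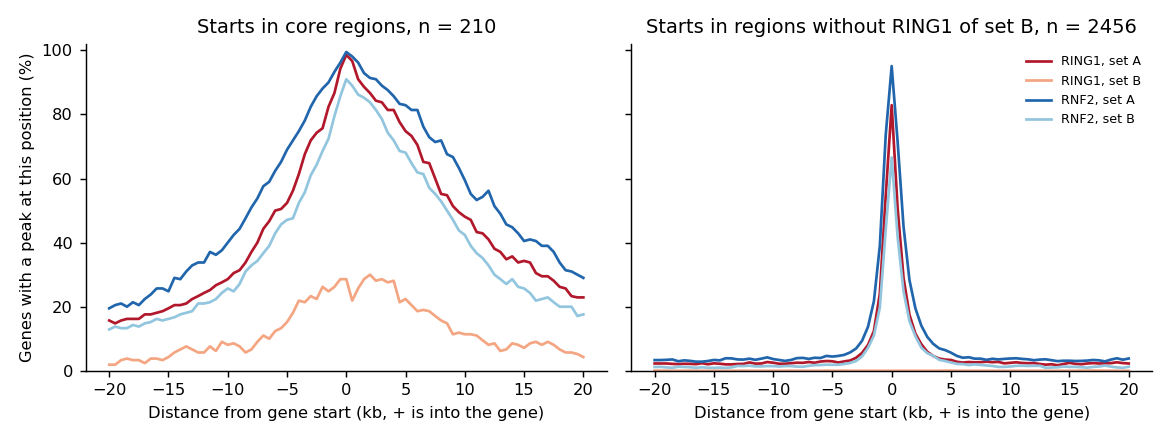
Percent of genes with a peak of each list at each position from 20 kb upstream to 20 kb downstream of the gene start, for 210 starts in core regions (left) and 2456 in near-core regions (right). At the start, core values are 99.5% and 91.0% for RNF2 and 98.6% and 28.6% for RING1 in sets A and B; the core curves spread over many kb and the near-core curves over a few.

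Genes of core regions were for a large part transcription factors. In all, 305 of 20037 protein-coding genes were assigned to a core region (1.52%). Of these, 210 had their tabulated start in a core region (1.33% of 15842 such genes), and 95 had no tabulated start and an annotated end within 2 kb of one (2.26% of 4195). Near-core regions, by the same rule, held another 3126 genes (15.6%). Genes of the 7 homeobox and PAX lists made up 121 of the 305 core genes (39.7%), and 0.968% of all coding genes. The exact binomial 95% interval of the core share is 34.1% to 45.4%. It treats genes as independent although clustered genes are not, and 39 of the 121 are HOX genes in 5 regions. The interval measures no spread between libraries. All gene lists were drawn up with earlier results of these data known, so their shares are descriptions and no independent support. Genes of all transcription factor lists made up 199 of the 305 core genes (65.2%), against 134 of 3126 near-core genes (4.29%) and 2.32% of all coding genes. Beside wide near-core regions the contrast was smaller. The 63 near-core regions at least as wide as the lower quartile of core regions held 58 genes, of which 34 (58.6%) were in those lists and 14 (24.1%) were homeobox genes. The core shares were not limited by width, so the groups are not matched. The 5 HOX regions are wider than any near-core region. Regions with a listed transcription factor numbered 159 of 290 (54.8%), with a median width of 22436 bp and RNF2 median folds of 12.9 and 6.72 in sets A and B. The 69 regions with coding genes in none of these lists had 10129 bp, 8.71 and 5.39. The lists do not hold every transcription factor, so these regions include some, such as those of DMRT2, DMRT3 and DMRTA2. The listed share of all coding genes is likewise not the share of all transcription factors.

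**Figure D4:**
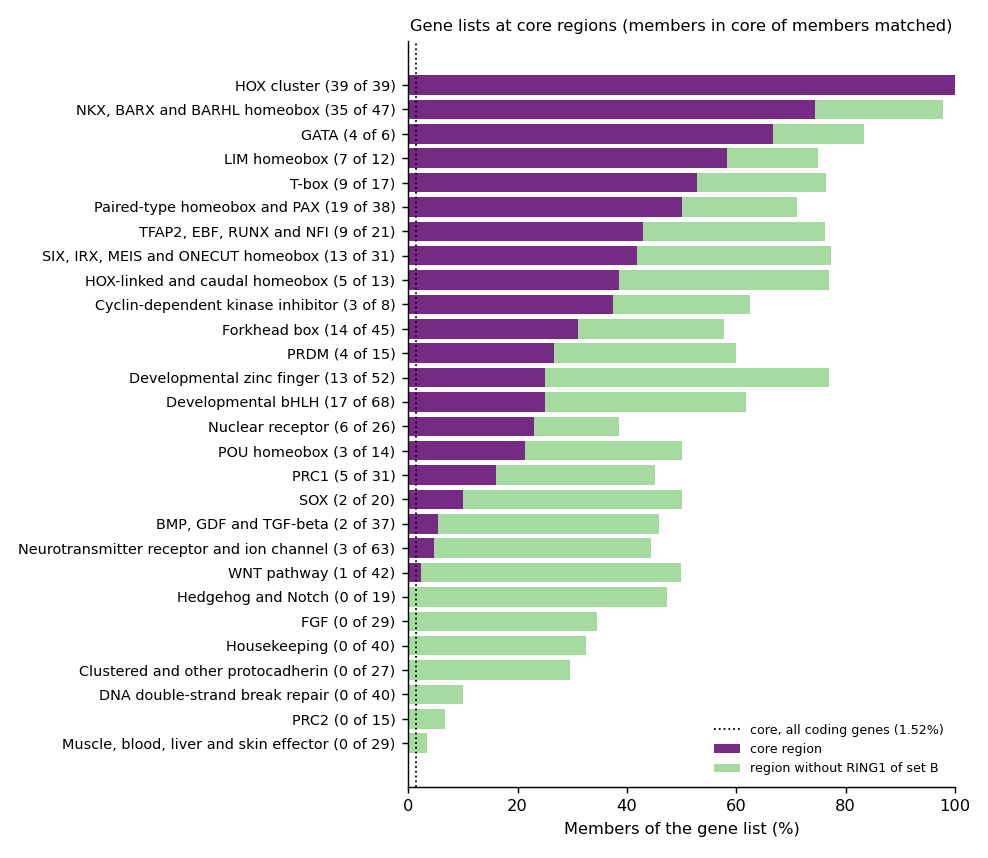
Percent of the members of each of 28 gene lists assigned to a core region (purple) or, failing that, a near-core region (green), with core counts beside the list names. The dotted line marks the 1.52% of all coding genes at core regions; the HOX list is at 100% (39 of 39) and 7 lists are at 0.

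Shares differed between the homeobox lists. All 39 HOX genes lay in 5 core regions, whose RING1 folds ran from 6.58 to 10.1 in set A and from 5.15 to 5.79 in set B. Of 47 genes of the NKX, BARX and BARHL list, which pattern organs and brain regions, 35 were core (74.5%) and 11 near-core. NKX2-3, a factor of gut and spleen, had 10.9 and 6.0 for RING1 and 14.3 and 8.22 for RNF2 in sets A and B. EMX1, a cortical factor, had 9.40 and 5.81 for RING1 and 14.03 and 7.70 for RNF2. Midbrain EN2 and the craniofacial MSX1 were also core, with RNF2 folds of 13.6 and 17.1 in set A. The paired-type and PAX list had 19 of 38 genes in core regions, among them OTP, PAX3 and PAX7, and the LIM list had 7 of 12, led by ISL2 and ISL1, both motor neuron factors. ISL2 had 12.9 and 5.31 for RING1 and 18.05 and 9.49 for RNF2. The list of sine oculis, IRX, MEIS and ONECUT genes had 13 of 31, among them IRX5, SIX6 and IRX1. The HOX-linked and caudal list had 5 of 13, which were EVX2, MNX1, CDX2, PDX1 and GBX2. The POU list had the lowest share of the homeobox lists with 3 of 14, and all 3 were POU4 genes of sensory neurons (POU4F1, POU4F2 and POU4F3).

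Transcription factors of other families were also at core regions. GATA genes were core in 4 of 6 cases (GATA2, GATA3, GATA4 and GATA6), with RNF2 folds between 14.1 and 16.5 in set A and between 7.79 and 9.34 in set B. T-box genes were core in 9 of 17, led by TBX20 (12.4 and 6.0 for RING1, 17.5 and 8.97 for RNF2), TBR1, TBX15 and TBX18. Forkhead genes were core in 14 of 45, with FOXD1, FOXF1, FOXA1 and FOXC1 first. FOXA1, which opens chromatin in endoderm, had 12.04 and 5.59 for RING1 and 17.3 and 9.20 for RNF2. The list of TFAP2, EBF, RUNX and NFI genes had 9 of 21 in core regions. RUNX1, a master regulator of blood stem cells, had 8.86 and 6.19 for RING1 and 12.9 and 8.11 for RNF2 in a region of only 10174 bp. The bHLH list had 17 of 68, led by TCF21, SIM1, HAND2 and TAL1, and the zinc finger list had 13 of 52, led by ZNF503, ZIC2, ZIC5 and SP9. PRDM genes were core in 4 of 15 (PRDM6, PRDM8, PRDM13 and PRDM14) and nuclear receptors in 6 of 26 (NR2F1, NR2F2, NR5A2, NR4A3, NR4A2 and NR2E1). The share of each of these lists in core regions was above the 1.52% of all coding genes.

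SOX and signalling genes had few members at core regions and more at near-core regions, as had all coding genes (1.52% and 15.6%) and several lists above, such as the bHLH and zinc finger lists. SOX genes were core in 2 of 20 cases, SOX14 and the endoderm factor SOX17, and near-core in 8. Of the WNT pathway, 1 of 42 genes was core (the receptor gene FZD10) and 20 were near-core, and of the BMP, GDF and TGF-beta list 2 of 37 were core (GDF6 and GDF7) and 15 near-core. FGF genes were core in 0 of 29 and near-core in 10, and Hedgehog and Notch genes were core in 0 of 19 and near-core in 9. At the 1.52% of all coding genes, lists of this size may well hold 0 core genes. The neurotransmitter and channel list had 3 of 63 in core regions and 25 in near-core regions. These 3 were GAD1 and GAD2, which make GABA, and SLC32A1, which loads it into vesicles. GAD1 had 7.96 and 4.08 for RING1 and 12.03 and 5.31 for RNF2. For SOX, WNT, BMP, FGF, Hedgehog and Notch, and neurotransmitter genes alike, the near-core share was between 34.5% and 47.6%, against 15.6% of all coding genes and 32.5% of the housekeeping list (13 of 40).

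Genes of PRC1 itself were among the core genes. These were 5 of 31, namely PCGF1, BMI1 (a PCGF protein), CBX2 and CBX8 (readers of methylated histone H3), and BCOR, a subunit of the complex built on PCGF1. The region that PCGF1 shares with the homeobox gene TLX2 had 10.9 and 4.95 for RING1 and 8.67 and 7.61 for RNF2 in sets A and B. BMI1 had 10.9 and 4.75 for RING1 and 15.7 and 7.10 for RNF2 in a region of 35923 bp. COMMD3, SPAG6 and the readthrough gene COMMD3-BMI1 were assigned to the same region. CBX2 and CBX8 shared 1 region of 30802 bp with 8.11 and 4.71 for RING1 and 10.5 and 6.39 for RNF2. PRC2 genes were core in 0 of 15. The start of RING1 lay in no merged region, and that of RNF2 in a region that is neither core nor near-core. Of 8 cyclin-dependent kinase inhibitor genes, 3 were core. CDKN2A and CDKN2B, genes of cell senescence, shared a region of 48844 bp with 8.76 and 5.14 for RING1 and 14.7 and 7.70 for RNF2. CDKN2C had its start in a region of 2053 bp, and a second core region of 24138 bp lay over its gene body. Protocadherin, DNA double-strand break repair, housekeeping and effector genes of muscle, blood, liver and skin were core in 0 of 27, 0 of 40, 0 of 40 and 0 of 29. Near-core regions held 8, 4, 13 and 1 of them, against 15.6% of all coding genes. Core regions held only 1.52% of all coding genes. At that share a list of this size, the PRC2 list included, may well hold 0, so these zeros set no list apart.

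Landmark genes of the labelled cell type fell on both sides. PAX6 was core, with 9.49 and 4.47 for RING1 and 11.2 and 7.98 for RNF2. SOX2 was near-core, with 3.42 for RING1 of set A and 3.87 and 5.01 for RNF2, and so was SOX1, with 6.52 for RING1 of set A and 8.17 and 5.89 for RNF2. NES, VIM and MSI1 lay at regions of other kinds. Of the pluripotency genes, PRDM14 was core (9.76 and 5.00 for RING1, 12.9 and 8.42 for RNF2), and POU5F1 and NANOG had no region. The neuronal genes RBFOX3, MAP2 and DCX had none either. Wide near-core regions belonged to SP8 (27001 bp), LHX2, OTX1, ZIC1 and MEIS1, factors of brain and limb patterning. MEIS1 also had a separate core region of 14713 bp over its gene body. That region had folds of 8.24 and 4.28 for RING1 and 11.5 and 7.13 for RNF2 in sets A and B. LHX2 had 6.56 for RING1 of set A and 8.33 and 6.56 for RNF2. A peak does not show whether a gene is expressed, and RNA was not analysed here.

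The remaining core genes and regions were of mixed kind. In no list were 92 core genes, among them the DMRT factors DMRT2, DMRT3 and DMRTA2, the corepressors SKOR1 and SKOR2, the RNA-binding protein gene ELAVL2 and the p53 relative TP73. DMRT3 had 7.50 and 4.09 for RING1 and 10.6 and 5.69 for RNF2. The region that TP73 shares with WRAP73 had 5.44 and 5.01 for RING1 and 5.85 and 5.66 for RNF2. Its RING1 peak of set B lay 89 bp from the start of WRAP73 and 2005 bp from that of TP73. At DMRT3 and TP73 alike, the RNF2 fold of set A was below the core median of 11.0. These genes were picked with their values known. No coding gene was assigned to 62 core regions, of which 26 held a lncRNA start and 26 overlapped a coding gene body. Their median width was 11780 bp, against 18448.5 bp for the 228 regions with a gene. The widest of them, 42952 bp on chromosome 5, holds the host gene MIR9-2HG and had folds of 10.005 and 5.08 for RING1 and 13.9 and 7.21 for RNF2. The next 4 were a region of 29070 bp in the body of BCOR, one of 28202 bp at LINC00682, one of 26436 bp in the body of NFIX, and one of 25324 bp on chromosome 5. The last held no coding gene body, tabulated lncRNA start or miRNA hairpin, and other annotation was not examined. Core regions also neighboured each other, since 58 of them lay within 100 kb of another, in 27 groups, while 232 stood alone. The largest groups had 3 regions, such as those of KAZALD1, TLX1 and LBX1 on chromosome 10 and of NKX2-1, NKX2-8 and PAX9 on chromosome 14.

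Noncoding genes were counted as well. Of 11461 lncRNA genes with a tabulated start, 181 started in a core region (1.58%), against 653 in a near-core region (5.7%). They include HOTTIP in the HOXA region, HAGLR in HOXD, DLX6-AS1 beside DLX6 and DLX5, CDKN2B-AS1 beside CDKN2A, PAUPAR beside PAX6 and FENDRR beside FOXF1. By name, 59 of the 181 are antisense, divergent or overlapping transcripts of another gene. Of 1562 miRNA hairpins in RefSeq, 18 overlapped a core region (1.15%). The hairpins MIR10A, MIR10B, MIR196A1, MIR196A2, MIR196B and MIR615 lie in HOX regions, MIR9-2 in the region of its host gene, and MIR424 and MIR503 together in a region on chromosome X. Mature sequences of 4 of them, from RefSeq on GRCh38.p14, are given 5′ to 3′ with the seed (bases 2 to 8) in capitals, because 2 of them share it across 3 HOX clusters.
miR-196a-5p: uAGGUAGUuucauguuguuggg
miR-196b-5p: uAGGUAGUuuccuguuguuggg
miR-10a-5p: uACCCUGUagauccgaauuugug
miR-9-5p: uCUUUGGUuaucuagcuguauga
The seed AGGUAGU of miR-196a-5p, from the HOXB and HOXC regions, is also that of miR-196b-5p from the HOXA region. The HOX clusters thus carry related miRNAs in the same core regions as their coding genes, while miR-9-5p, abundant in the developing brain, has another seed. The region of MIR424 and MIR503 had RING1 folds of 8.05 and 4.73 and RNF2 folds of 10.8 and 4.03 in sets A and B.

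Start windows of core genes were rich in CpG, but less so than those of near-core genes. Sequence was not used to choose the regions, but 210 of the 305 core genes (68.9%) have a tabulated window, too few for a statement on all core genes, so the values describe these windows only. The ratio of observed to expected CpG had a median of 0.812 in 210 core windows, 0.866 in 2456 near-core windows and 0.763 in all 15842 windows. It was at least 0.6 in 84.3% of core windows, 92.8% of near-core windows, 38.7% of the 7855 windows of genes at no region and 65.8% of all. The median G+C content was 64.0% in core windows, 68.7% in near-core windows and 62.7% in all. Of the core windows, 6 were under a ratio of 0.3, the NR5A2 window shown above among them. The NR5A2 region had folds of 8.39 and 4.68 for RING1 and 12.9 and 6.67 for RNF2, so its values were not the lowest of the core set. These are the highest folds anywhere in a region of 21943 bp, not values of the window. The NR5A2 start lay in a peak of each other list but 10512 bp from the nearest RING1 peak of set B.

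**Figure D5:**
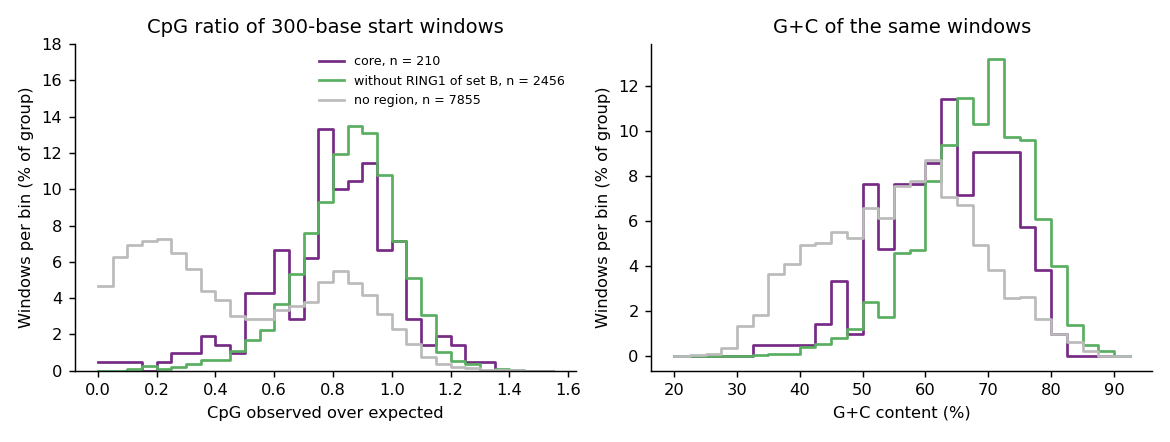
Distribution of the CpG observed over expected ratio (left) and G+C content (right) of 300-base start windows, as percent of windows per bin, for genes at core regions (purple, n = 210), near-core regions (green, n = 2456) and no region (grey, n = 7855). Core medians are 0.812 and 64.0%, between those of near-core windows (0.866 and 68.7%) and windows at no region (0.415 and 56.7%).

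Short motifs were counted in the same windows on both strands, as letters only. TATAAA was in 11.9% of core windows, 5.29% of near-core windows and 9.63% of all windows. CCAAT was in 46.2% of core windows, 40.5% of near-core windows and 36.4% of all, and GGGCGG in 65.2%, 79.5% and 58.5%. GAGAGAG was in 14.8% of core windows, 8.84% of near-core windows and 9.33% of all, and CACGTG in 13.3%, 11.8% and 8.88%. TTTCCCGC was in 0 of 210 core windows, against 3.38% of near-core windows and 2.18% of all, and GCCATNTTG was in 1.43%, 3.62% and 3.86%. Some of these motifs hold a CG themselves. Each motif was counted on its own, so 1 stretch may serve more than 1 of them, and the shares carry no test.

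The deposited consolidated file, which holds 4255 regions without values, contained all 290 core regions, each with the same bounds within 1 bp. All 4255 of its regions matched 1 of the 4256 merged regions in which at least 1 antibody was called in both sets, within 1 bp.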

How the data were processed

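Wild-type RING1 and RNF2 CUT&RUN was made with the EpiCypher CUTANA kit and sequenced on a NextSeq, per the labels, and analysed here from 4 peak lists and 1 consolidated file of 3 columns. The submitters' processing notes name MACS2 2.2.9.1, deepTools 3.5.2, BWA 0.7.17, Picard 2.8.1, SAMtools 1.9 and bedtools 2.30.0 with build hg38. Each deposited peak has a fold (a ratio of signal over background) and a −log10 q by the authors' caller, and further columns were not analysed. Neither control nor depth is given in the sources used here, and a missing peak does not show absence.

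Peaks that overlapped or touched were merged. A gene belonged to a region that held its start in the RefSeq promoter table (GRCh38.p14); genes without an entry there needed either annotated end within 2 kb. Members and gene lists were chosen with earlier results of these data known. Named are the 10 highest ranked, 10 widest and 5 lowest ranked regions, those with most genes, the 5 widest without a gene, up to 4 genes per list, landmark genes, RING1 and RNF2, and a few genes chosen after their values were seen. A few genes picked by this rule are not reported here. No test across genes was run. The merging step was tested on simulated data. Alternatives covered coverage, merging distance, q, list length, chromosomes, gene assignment and each set left out. Python 3.11.15, numpy 2.4.6, pandas 2.3.3 and matplotlib 3.10.9 were used.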

Additional observations from a re-analysis of the deposited data

How the results depend on the processing

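The count of core regions rests on set B. Leaving out 1 set at a time gave 328 to 9964 regions in place of 290, a median width of 1440 to 9736 bp in place of 16907 bp, 273 to 7633 genes in place of 305, and a homeobox share of 2.214% to 40.66% in place of 39.67%; the high counts and the low width and share are those without set B. Lists cut to equal length gave 192 regions and a homeobox share of 45.7%, and peaks with a −log10 q of 2 or more gave a share of 45.45%. Counting RING1 peaks of set B that overlap a peak of each other list gave 597 peaks with a median width of 1449 bp at 125 genes. A 10% coverage minimum left 204 regions. The median CpG ratio stayed between 0.7979 and 0.87 in all alternatives. No paired analysis was possible because no test between groups was run and the labels tie neither set to a replicate number. Depth is unknown, and the q behind RING1 of set B is the weakest, so regions near the rule's edge could change side.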
